A study of Mus musculus with 20 samples.

Results

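These regions were GATA6 binding sites at enhancers of mouse embryonic stem (ES) cells that held GATA6 only for part of its induction and were bound neither by SOX17 nor by the pluripotency transcription factors (PTFs) OCT4, SOX2 and ESRRB. They were taken from the authors' table of GATA6 regions as those with a transient GATA6 cluster, no SOX17 peak, no PTF peak, and an active, primed or poised enhancer class of ES cell histone marks. The rule selected 4488 of 42403 regions. Of these, 2111 (47%) carried the poised class, 1495 (33.3%) the primed class and 882 (19.7%) the active class, against 14.6%, 16.9% and 11.2% of all GATA6 regions. The rule admits only these classes, so shares above those of all regions follow from it and are no finding. Over all GATA6 regions, 6185 were poised, 7146 primed and 4730 active. The members were thus chosen by measured ChIP-seq values, turned by the authors into classes of GATA6, SOX17 and PTF binding and of histone marks. Accessibility, which is reported here, did not choose them, and GATA6 binding itself is no finding.

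ATAC-seq, a readout of where Tn5 transposase can cut and tag DNA in open chromatin, was run on 20 samples from separate cultures. In all, 17 samples were KH2 ES cells (a cross of C57BL/6 and 129/Sv) with a doxycycline-inducible Gata6 cassette, kept in serum and LIF on feeder fibroblasts that were removed before the assay. They comprised 3 samples without doxycycline (d0) and, under 1 ug/mL doxycycline, 3 per time from 8 h over 16 h and day 1 to day 2 and a pair at day 4. The other 3 samples were XEN cells of the X10 line (CD1 background), an extraembryonic endoderm line grown without LIF and without doxycycline, so that line, strain and medium cannot be told apart from cell type in any comparison with them. Times follow the sample titles, whereas the treatment labels state longer exposures, from 16 h for the 8 h group to 72 h for the day 2 group. The inducible line was derived by picking clones, and which clone a sample came from is not given in the sources used here. Feeders were depleted by adsorption to plastic, not by sorting.

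GATA6 is a zinc finger factor of the endoderm that binds GATA sequences, in part on nucleosomes, and its expression is sufficient to turn ES cells into cells of the primitive endoderm (PrE), the precursor of the yolk sac. Enhancers carry H3K4me1, to which H3K27ac is added in the active state and H3K27me3 in the poised state, while primed enhancers carry neither. In ES cells OCT4, SOX2 and ESRRB bind many active enhancers and help to keep them open.

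The sequence under the binding sites is shown first, because most of the regions held a GATA6 motif whether or not their accessibility changed. A match to the GATA6 matrix in the authors' motif scan was present in 4072 regions (90.7%), against 89.7% of all GATA6 regions. The best match had the letters GATA at positions 5 to 8 of its 13 letters in 84.5% of regions with a match and the core AGATAA in 61.1%, against 81.1% and 59.5% over all regions. The best matches of regions described below are given 5′ to 3′ on the strand of the match, with positions 5 to 8 in capitals and the distance to the nearest start of a protein-coding transcript. In order, they come from regions that were less accessible at day 4 (Slc26a9, Esrrb, Zc3h12a, Pknox2) and more accessible at day 4 (Ihh, Abhd17c, Pitpnm2).
Slc26a9, 1.47 kb downstream (chr1:131746016-131746028, plus strand): ctgtGATAaggaa
Esrrb, 26.2 kb upstream (chr12:86395419-86395431, minus strand): ctctGATAagacc
Zc3h12a, 2.12 kb downstream (chr4:125125733-125125745, plus strand): gagaGATAtgcaa
Pknox2, 61.4 kb downstream (chr9:37021764-37021776, plus strand): agcaGAGAagagg
Ihh, 1.83 kb downstream (chr1:74949862-74949874, minus strand): tgcaGATAaggat
Abhd17c, 12.9 kb downstream (chr7:84139007-84139019, plus strand): gtgtGATAagaga
Pitpnm2, 5.49 kb downstream (chr5:124211143-124211155, minus strand): gcaaGATTagcta
The Slc26a9, Esrrb, Abhd17c and Ihh matches hold GATAA and had scores of 10.5, 10.7, 11.9 and 13.01. The Zc3h12a match holds GATAT and had 7.26, and the Pknox2 and Pitpnm2 matches depart from GATA and had 9.0 and 6.82. The median score was 10.5 over the members and 10.2 over all regions. Full and departing matches thus occurred in regions that changed in either direction.

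The windows around the GATA6 summit of a region that lost accessibility and a region that gained it are shown on the plus strand of mm10, with the best GATA6 match in capitals, so that the match can be seen in its place.
Esrrb, 26.2 kb upstream (chr12:86395358-86395558): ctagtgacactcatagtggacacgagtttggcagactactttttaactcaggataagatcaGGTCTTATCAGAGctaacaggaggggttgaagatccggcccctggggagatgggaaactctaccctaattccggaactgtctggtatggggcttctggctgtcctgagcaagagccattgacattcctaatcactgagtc
Ihh, 1.83 kb downstream (chr1:74949740-74949940): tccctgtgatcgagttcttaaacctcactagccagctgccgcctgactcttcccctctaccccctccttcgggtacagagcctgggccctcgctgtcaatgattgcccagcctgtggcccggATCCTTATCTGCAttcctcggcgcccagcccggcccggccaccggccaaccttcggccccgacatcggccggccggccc
The Ihh window is rich in CG letters, which also held for the members as a set. Within 150 bases to either side of the GATA6 summit their median GC content was 49.5% and they held 4.31 CpG on average, against 45.5% and 3.79 for all regions. Poised members had the most CpG (mean 5.26), active members 4.49 and primed members 2.86.

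Further short sequences were counted in the same stretches on both strands. No searched sequence contains another, and a match is a description of letters, not a bound site. AGATAA was found in 59.4% of members and 58.1% of all regions. The octamer ATGCNAAT, which OCT4 recognises, was in 5.86% of members and 7.09% of all regions, and in 18.5% of the 3001 transient regions at ES enhancers that were PTF-bound at d0 and free of SOX17. The SOX sequence AACAATG was in 4.17% against 11.4%. The KLF sequence CCCCACCC was in 15% against 9.08%, and the ESRRB sequence TCAAGGTCA in 3.19% against 1.57%. The AP-1 sequence TGANTCA was in 9.8% against 14.2%, the TEAD sequence GGAATG in 23.1% against 24.8%, the ETS sequence CCGGAAG in 2.18% against 1.9% and a CTCF core sequence in 2.45% against 1.36%. Members therefore held fewer SOX sequences and more KLF, ESRRB and CTCF sequences than all GATA6 regions, counted in this way. They were chosen without SOX17 or PTF peaks, so their lower SOX and OCT4:SOX2 shares are no independent finding. In other transient regions free of SOX17 the SOX share was 7.73% (PTF-bound enhancers), 6.2% (facultative heterochromatin) and 5.7% (unmarked chromatin). The ESRRB sequence was in 3.3% of the PTF-bound set, near the members' share. In the authors' scan with position matrices, SOX17 matches were present in 53.1% of members against 69.2% of all regions, OCT4:SOX2 matches in 63.5% against 71.5% and ESRRB matches in 39.2% against 36.3%.

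The members were short regions (median width 468 bp, all regions 524 bp) at a shorter median distance from a transcription start than GATA6 regions in general. Introns held 52.3% (all regions 48.1%), intergenic sequence 37.3% (41.5%), sequence within 1 kb of an annotated transcription start 6.91% (7.99%) and exons 3.5% (2.4%). The median distance to the nearest start of a protein-coding transcript was 18.6 kb against 25.7 kb, and 34.4% lay within 10 kb against 29.4%. Active members were nearest (13.6 kb), poised members intermediate (15.9 kb) and primed members farthest (27.3 kb). Another GATA6 region lay within 5 kb of 1598 members (35.6%), and the nearest of these was itself transient for 835, early for 484 and late for 279. The members' nearest protein-coding genes numbered 3317, of which 2477 had 1 member. The genes with the most members were Bcor, a Polycomb-associated corepressor, and Myc, the growth regulator, with 8 each among 24 and 37 GATA6 regions. Pitpnc1 and Rnf220 followed with 7 each, among 14 and 18. The 8 regions nearest to Bcor differed from d0 by a median of -0.48 on the log2 scale at day 4, with 7 below d0, the lowest at -1.59 and 1 past 2-fold higher, and those nearest to Myc by a median of -0.35, with 6 below d0 and the lowest at -1.28, where 68.7% of all members were below d0.

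Before induction the members were mostly of intermediate accessibility. By the authors' class at d0, 2751 (61.3%) were moderate, 1569 (35%) closed and 168 (3.74%) accessible, while 61.3% of all GATA6 regions were closed, 31.2% moderate and 7.43% accessible. Active members were moderate or accessible in all but 36 of 882 cases, and primed members were closed in 55.9%. The levels at d0 followed the marks, with a median of 0.343 RPM per kb (library-size-scaled reads, divided here by the width) in active members, 0.229 in poised members and 0.166 in primed members. All GATA6 regions had 0.142 RPM per kb, and those of the active, poised and primed marks 0.409, 0.224 and 0.178. The higher level in active regions was thus not particular to the members. The members as a whole had 0.221 RPM per kb and the other GATA6 regions at ES enhancers 0.241. Since the accessibility class at d0 was made from d0 accessibility, its relation to the d0 level is no finding.

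As a check of the cell labels, GATA6 regions within 50 kb of 7 ES cell genes had a median change against d0 of -0.16 on the log2 scale at day 4, with 12 past 2-fold lower and 7 higher, after 0.33 at day 1 and 0.58 at day 2, and of -0.49 for XEN. The values within 50 kb of 9 extraembryonic endoderm genes were 1.53 and 0.98. The 13 regions at fibroblast genes, which would mark remaining feeders, had 0.10 and 0.38, and no region was found at 2 of the 10 genes, so their part in the results was not tested. The recovered libraries had sizes of 181 to 288 M reads, apart from XEN library A with 43.3 M reads. They held between 51661 and 143866 reads in the members, and XEN library A 10665.

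Averaged over the libraries of a group, the members gained little and then lost accessibility. From d0 the median over the 4488 members went from 0.108 to 0.113 RPM (8 h), 0.117 (16 h), 0.135 (day 1), 0.123 (day 2) and 0.0828 RPM (day 4), and XEN cells had 0.0913 RPM. All GATA6 regions began lower, at 0.0777 RPM, and were higher later, with 0.161 RPM on day 2, 0.129 on day 4 and 0.121 for XEN. Against d0, the median change of the members on the log2 (RPM + 0.03) scale was 0.05, 0.09, 0.26, 0.11 and -0.25 for the successive times of induction and -0.15 for XEN. The corresponding values for all regions were 0.03, 0.11, 0.31, 0.69, 0.52 and 0.40, so that the members parted from all regions at day 2. All transient GATA6 regions, members included, had -0.0035, 0.08, 0.26, 0.18, -0.22 and -0.20. The course was thus not particular to the members, which the rule took from the transient cluster. Centring each column on the median of all regions moved the members' values for the last 3 times to -0.14, -0.72 and -0.81, which turned the sign at day 1 and day 2. The columns are averages without spread, so these differences carry no test.

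**Figure D1:**
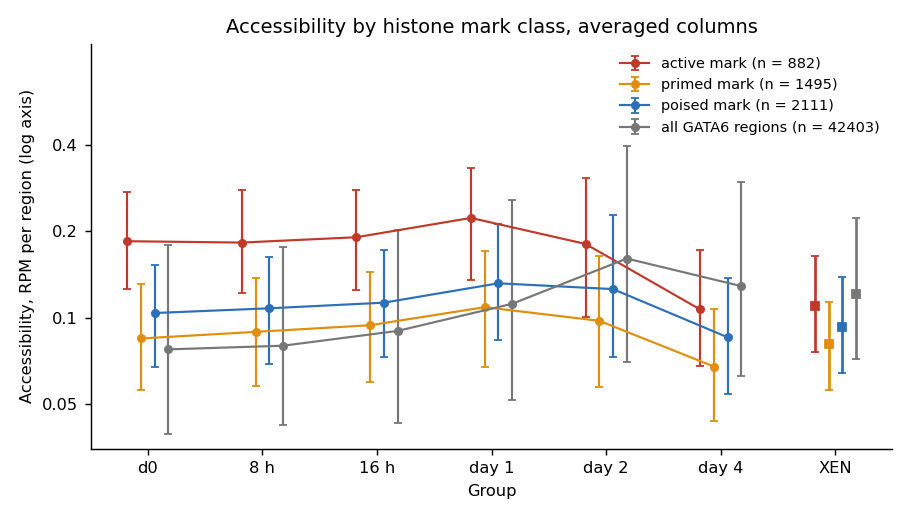
Accessibility of the members by histone mark class and of all GATA6 regions in each group, from the authors' averaged columns. Points are medians over regions and bars the middle 50% of regions, in RPM per region on a log axis. Active members had the highest median up to day 2 and ended at 0.107 RPM at day 4, below the 0.129 RPM of all regions.

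Counts of regions past a 2-fold change of the average followed these medians. At day 1, 57 members were past 2-fold higher and 0 lower, against 4.55% and 0.00707% of all regions. At day 2, 526 members (11.7%) were higher and 74 lower, against 36.8% and 1.41%. At day 4, 108 were higher and 445 lower, against 31.0% and 7.27%. In XEN cells, 71 were higher and 409 lower, against 27.7% and 8.83%. At day 4 the share of members past 2-fold lower (9.92%) was thus above the share over all regions and the share past 2-fold higher well under it. The share lower was under that of all transient GATA6 regions (17.8%) and of the other GATA6 regions at ES enhancers (16.3%). By d0 class it was 1.02% of closed, 12.9% of moderate and 43.5% of accessible members, against 0.285%, 14% and 36.5% over all regions. Centred columns turned the balance at day 2, with 68 higher and 1431 lower, and gave 17 and 1645 at day 4. Quantile-normalised columns gave 51 and 1014 at day 2 and 14 and 1569 at day 4. With a pseudocount of 0.15 RPM, 173 were higher and 3 lower at day 2, and 21 and 45 at day 4.

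The time of the highest average was spread over the induction. From d0 to day 4, 33.2% of members had their highest value at day 2, 30.9% at day 1, 17% at 8 h, 11.3% at 16 h, 4.43% at day 4 and 3.28% at d0. Over all regions, 45% were highest at day 2 and 28% at day 4. Poised members were highest at day 2 in 37.8% of cases and active members at day 1 in 35.1%. The transient enhancer regions with PTFs at d0 were highest at d0 in 28.6% of cases. The members' share at d0 was near that of all regions (3.16%). The transient GATA6-only regions in facultative heterochromatin and in unmarked chromatin had 0.517% and 1.05%.

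**Figure D2:**
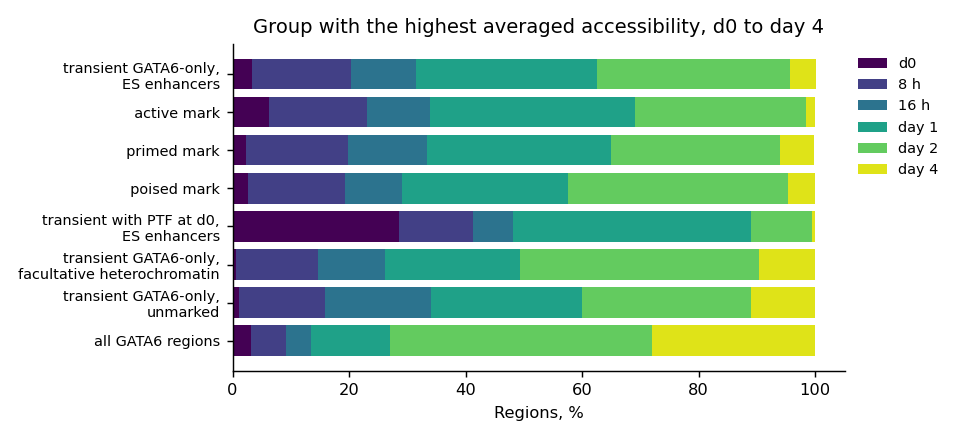
Share of regions, in percent, whose averaged accessibility was highest in each group from d0 to day 4, for the members, their 3 mark classes, 3 related sets of transient regions and all GATA6 regions. The day 4 segment holds 4.43% of the members and 28% of all regions.

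For tests, single libraries were recovered from the averages, as described under the processing, for 2771 of the 4488 members (61.7%) and 24753 of all regions. The recovered members lay on chromosomes 1 and 4 to 13, with 11 on chromosome 2, and their change at day 4 in the averages (median -0.24) was close to that of the members without recovery (-0.26). No libraries could be recovered at d0, so 8 h served as the baseline, and the 3 XEN samples were resolved into 2 libraries only. The libraries are called A, B and C within a group in no order. Regions were called where limma gave a Benjamini-Hochberg adjusted p under 0.05 over the 24753 regions together with a log2 (RPM + 0.03) difference of more than 1 in size.

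The members' median level was 0.076, 0.141 and 0.113 RPM in the 8 h libraries, and 0.0784, 0.105 and 0.155 in those of 16 h. It was 0.116, 0.173 and 0.107 RPM for day 1 and 0.131, 0.124 and 0.109 for day 2. Day 4 had 0.0802 and 0.0804 and XEN 0.0693 and 0.0832 RPM. The day 4 libraries lay within the range of the 8 h libraries, since 8 h library A was low, and the pooled SD of a library's median was 0.277 on the log2 scale. Relative to the median of all regions in the same library, however, the members stood 0.26 to 0.41 above it at 8 h and 0.50 to 0.52 below it at day 4, without overlap. At day 2 they stood 0.25 to 0.42 below it. The level of the members was therefore separated between 8 h and day 4 only relative to the other GATA6 regions of the same library.

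No member was called at 16 h against 8 h in either direction (0.00404% of all regions higher and 0.00404% lower), with 98 of 2771 members at an unadjusted p under 0.05 and 0 called by limma voom on reads. Centred libraries gave 1 higher and 10 lower, and quantile normalisation 3 and 18. At day 1, 47 members were called higher, against 5.38% of all regions, and 1 lower, against 0.0162%. The 1 that was lower, named after its value was seen, lay 6.5 kb downstream of the start of Sfn, an epithelial 14-3-3 protein, with 0.361, 0.536 and 0.347 RPM at 8 h and 0.132, 0.227 and 0.142 at day 1. The count of 47 rested on single libraries: it was 1 without 8 h library A, 106 without 8 h library B, 28 without 8 h library C, and 17, 0 and 79 without day 1 libraries A, B and C. The Sfn call was lost without 8 h library A or B or day 1 library A or B. Centred on the median of all regions in each library, 6 members were higher and 27 lower (all regions 1.56% and 0.509%). No count at day 1 was therefore stable over libraries or scaling.

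At day 2 against 8 h, 365 members (13.2%) rose, against 38.0% of all regions, and 85 (3.07%) fell, against 1.27%. The median change was 0.11, while that of all regions was 0.70. The count of members that rose ranged from 254 to 488 over the libraries left out, and that of members that fell was 182 without 8 h library A and 34 without 8 h library B. After each library was centred on its own median over all regions, 59 rose and 931 fell (all regions 14.4% and 14.8%), with a median change of -0.70. The members' balance at day 2 thus turned on whether levels were read on the library-size scale or relative to the other GATA6 regions.

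At day 4 against 8 h, 367 members (13.2%) fell, against 7.09% of all regions, and 89 (3.21%) rose, against 31.7%. The median change was -0.29, against 0.52 for all regions. Leaving out 8 h library A gave 603 members that fell, leaving out 8 h library B 228, day 4 library A 243 and day 4 library B 232. The count of members that rose was 58, 49 and 56 without 8 h library A, day 4 library A and day 4 library B. Centred libraries gave 1078 that fell and 25 that rose (all regions 16.7% and 17.0%), with a median of -0.83. More members fell than rose at day 4 under each of these settings.

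Between day 2 and day 4, 315 members (11.4%) fell, against 8.46% of all regions, and 2 rose, against 2.06%, with a median change of -0.46. Both that rose were primed regions, named after their values were seen, 25.8 kb downstream of the start of Morf4l1 and in an intron of Glb1. With 1 library left out, between 32 and 282 members fell: 111 and 110 without day 2 library A or B, and 33 and 32 without day 4 library A or B. Centred libraries gave 163 that fell and 13 that rose (all regions 5.05% and 5.99%).

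At the median, XEN cells and day 4 had similar levels at these regions. Of 2771 members, 60 members were called higher than at day 4, against 4.89% of all regions, and 191 lower, against 14.8%, with a median change of -0.04. Without day 4 library A or B, 17 and 12 were higher and 61 and 68 lower, and without the shallow XEN library A 8 were higher and 32 lower. Centred libraries gave 137 higher and 182 lower (all regions 7.53% and 14.2%). The members' median was 0.32 on chromosome 6 and 0.33 on chromosome 8, where all regions were also raised (0.12 and 0.14), and negative on each of the other chromosomes with recovered libraries. In the averages, which cover all chromosomes, the members were also raised on chromosomes 16 (0.47, all regions 0.30), 19 (0.40 and 0.23), X (0.36 and 0.08), 18 (0.32 and 0.13) and 14 (0.27 and 0.03), none of which had recovered members. Without chromosomes 6 and 8, 34 members were higher and 181 lower.

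**Figure D3:**
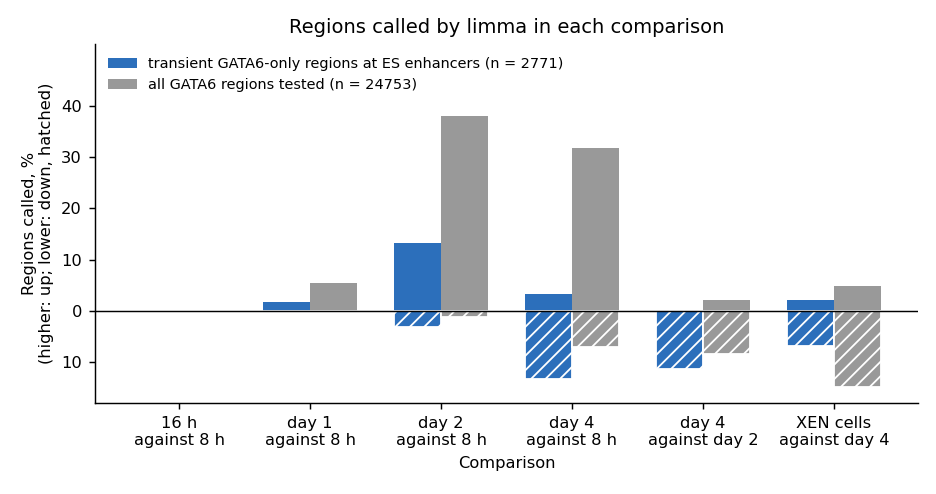
Share of regions called by limma, in percent, among the 2771 members and the 24753 regions tested in each comparison. Solid bars above 0 are regions called higher and hatched bars below 0 regions called lower, and at day 4 against 8 h 13.2% of the members and 7.09% of all regions were lower.

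At day 4 active members fell more often than primed and poised members, which also held for the mark classes over all GATA6 regions. Of 527 active members 129 (24.5%) fell and 7 rose at day 4 against 8 h, of 868 primed members 85 (9.79%) fell and 24 rose, and of 1376 poised members 153 (11.1%) fell and 58 rose. The same classes over all GATA6 regions had 26.5%, 10.4% and 8.2% that fell. The medians of the active, primed and poised members were -0.59, -0.26 and -0.24. The accessibility class at d0, which was not made from the libraries compared here, also went with the change: 46 of 117 accessible members fell (39.3%), 271 of 1666 moderate members (16.3%) and 50 of 988 closed members (5.06%). Over all regions these classes had 32.4%, 12.7% and 0.757%. Within the active class, 38 of 74 accessible members fell (51.4%, median -1.08) and 91 of 436 moderate members (20.9%, median -0.55). In the averages at day 4, 20.6% of active, 14.4% of primed and 8.16% of poised moderate members were past 2-fold lower than d0.

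**Figure D4:**
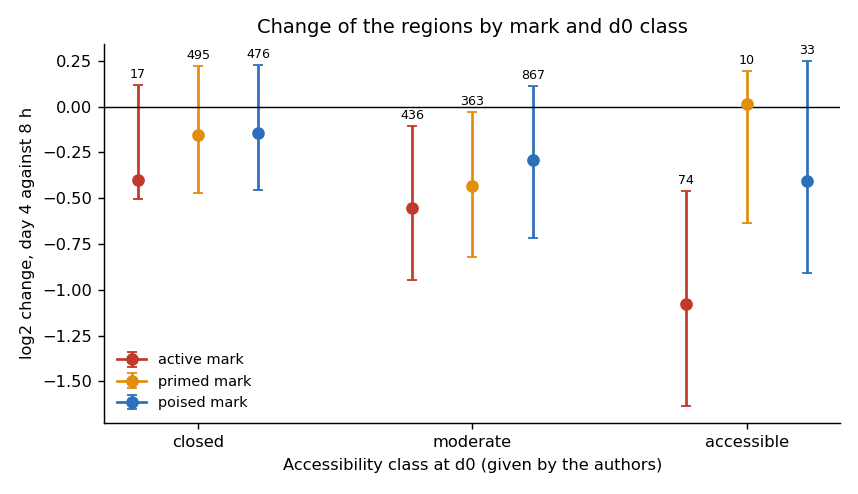
Change in accessibility at day 4 against 8 h by histone mark class and by the authors' accessibility class at d0, on the log2 scale. Points are medians over the members, bars the middle 50% and the number of members stands above each bar, and active accessible members had a median of -1.08.

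Members that rose at day 2 were poised in 60% of cases and active in 12.1%, while 49.7% and 19% of the recovered members were poised and active. Those that fell at day 4 were active in 35.1% of cases and had a median level of 0.181 RPM at d0, against 0.11 for the recovered members and 0.0848 for those that rose. Low regions change less on the log2 (RPM + 0.03) scale, and the part of the level in these shares was not tested. Of the 85 members that fell at day 2, 22.4% held the AP-1 sequence TGANTCA, and of the 367 at day 4, 15%. It was in 9.78% of the recovered members and 14.2% of all GATA6 regions, so the day 4 share was near the latter. The KLF sequence CCCCACCC was in 21.2% and 18% of those that fell, against 15% and 9.08%. The GATA sequence AGATAA was in 50.1% of those that fell and 51.7% of those that rose at day 4, against 60.8%.

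Calls were made among members with and without a GATA6 match. Of 243 recovered members without a GATA6 match, 42 (17.3%) fell and 15 (6.17%) rose at day 4 against 8 h, and of 2528 with a match 325 (12.9%) fell and 74 (2.93%) rose. Among all regions, 10.5% without and 6.7% with a match fell. Members with a best score under 8.99 fell in 15.9% of cases and those with a score above 11.6 in 11.3%.

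A small number of members had decreased GATA6 binding by the authors' class after Oct4 knockdown, a measure of binding and not of accessibility. The class was made at day 2 of simultaneous induction and knockdown. It is thus not independent of the state of the regions at day 2, and the part of this in the shares below was not tested. GATA6 binding was decreased on knockdown at 125 members (2.79%, all regions 6.25%), increased at 10 and unchanged at 4353. Of the 75 decreased members with recovered libraries, 39 (52%) rose at day 2 against 8 h and 0 fell, while 325 of 2686 unchanged members (12.1%) rose. Among all GATA6 regions the shares were 62.2% and 35.2%. In the averages, 50.3% of all GATA6 regions of the increased class were also past 2-fold higher at day 2, against 33.8% of the unchanged class. Between day 2 and day 4, 31 of the 75 (41.3%) fell and 0 rose, against 10.5% of unchanged members that fell and 35.4% of all GATA6 regions of the decreased class. In the averages, the 125 decreased members had a median change against d0 of 0.61, 1.02 and 0.19 on days 1, 2 and 4, and of -0.23 for XEN. Over all GATA6 regions of this class the medians were 0.61, 1.21, 0.33 and -0.11, so the course was not particular to the members. It did not hold for each of them: 64 of the 125 were past 2-fold higher at day 2, and at day 4 against 8 h 7 of the 75 rose and 7 fell.

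The regions with the largest losses at day 4 lay near genes of varied function, and the nearest gene is given only as an address. An intronic poised region 1.47 kb downstream of the start of Slc26a9, an epithelial anion transporter, at chr1:131744911-131746124, had 0.593, 0.959 and 0.652 RPM in the 8 h libraries and 0.102 and 0.106 at day 4. Day 1 library B was the highest with 1.51 RPM, and the 2 day 4 libraries were below all others. It fell by 2.49 ± 0.40 (SE) on the log2 scale (adjusted p = 1.68e-08 by limma), and the XEN libraries, with 0.277 and 0.295 RPM, were higher than day 4 by 1.24 (adjusted p = 0.03). An intergenic active region 92.9 kb upstream of Map1b, a microtubule-associated protein of neurons, at chr13:99609139-99609633, had 0.176, 0.296 and 0.234 RPM at 8 h, 0.0436, 0.0429 and 0.0699 at day 2 and 0.00534 and 0.0352 at day 4. Its lowest value was 1 read, so the day 4 level was close to the limit of the depth. It fell by 1.68 by day 2 (adjusted p = 8.39e-06) and fell by 2.44 ± 0.39 by day 4 (adjusted p = 1.09e-08 by limma), and held no GATA6 match.

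Further active regions, chosen like the others by the size of this fall, took the same course, with day 4 libraries below all 8 h libraries. One in an exon of Fbxo24, 2.42 kb upstream of the start of Pcolce, an enhancer of collagen processing (chr5:137613637-137614049), went from 0.394, 0.771 and 0.445 RPM at 8 h to 0.0534 and 0.106 at day 4 (log2 change -2.36, adjusted p = 6.99e-08 by limma). Another, in an intron of Zc3h12a, an endoribonuclease that degrades inflammatory mRNAs (chr4:125125466-125125956), went from 0.47, 0.743 and 0.497 to 0.0748 and 0.1 RPM (-2.33, adjusted p = 9.49e-08 by limma). The region in an intron of Pknox2, a TALE homeobox gene, 61.4 kb from its start (chr9:37021529-37022720), went from 0.536, 0.982 and 0.638 to 0.118 and 0.116 RPM (-2.31, adjusted p = 1.54e-07 by limma). In all of these the day 2 libraries lay between the 8 h and the day 4 libraries.

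The Esrrb region was the only one of these 6 near a gene of the pluripotency list. It lay in an intron of the annotated gene, 26.2 kb upstream of the nearest start (chr12:86394997-86395779), was poised, and was among those at which GATA6 binding was decreased on Oct4 knockdown. Esrrb codes for an orphan nuclear receptor of the naive ES cell network. The libraries had 0.446, 0.606 and 0.544 RPM at 8 h, 0.252, 0.3 and 0.424 at day 2 and 0.0962 and 0.0854 at day 4, in an order without overlap between these times. The region was chosen by its fall between 8 h and day 4. It fell by 2.21 ± 0.40 between 8 h and day 4 (adjusted p = 5.1e-07 by limma) and fell by 1.53 between day 2 and day 4 (adjusted p = 0.00523), a call that was lost without either day 4 library. XEN libraries had 0.185 and 0.177 RPM.

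The 4 regions with the largest gains at day 4 were all poised and all opened by day 2. At chr1:74949706-74950155, in an intron of Ihh, a hedgehog ligand made by visceral endoderm, the libraries had 0.0522, 0.141 and 0.0984 RPM at 8 h, 0.658, 0.795 and 0.376 at day 2 and 0.411 and 0.492 at day 4. It rose by 2.33 ± 0.36 by day 2 (adjusted p = 8.42e-10) and by 1.98 ± 0.40 by day 4 (adjusted p = 6.05e-06 by limma), and the XEN libraries, at 0.231 and 0.239 RPM, lay between 8 h and day 4. A region 17.5 kb upstream of Plxnc1, a semaphorin receptor (chr10:94962137-94962542), rose by 2.06 (adjusted p = 2.25e-06 by limma), from 0.0855, 0.094 and 0.0797 RPM at 8 h to 0.497 and 0.417 at day 4. In XEN cells it had 0.0693 and 0.059 RPM, in the range of the 8 h libraries or below it.

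The remaining gains were in an intron of Abhd17c, a depalmitoylating enzyme (chr7:84138805-84139199), from 0.0332, 0.094 and 0.113 RPM at 8 h to 0.395 and 0.392 at day 4 (2.03, adjusted p = 3.14e-06 by limma), and in an intron of Pitpnm2, a phosphatidylinositol transfer protein (chr5:124210780-124211193), from 0.057, 0.169 and 0.136 to 0.561 and 0.523 RPM (2.01, adjusted p = 4.3e-06 by limma). The XEN libraries were lower than day 4 at Plxnc1 by a log2 change of -2.37, at Abhd17c of -2.31 and at Pitpnm2 of -1.81. No such call was made at Ihh. The calls of these 10 regions at day 4 against 8 h held under every alternative setting tried and with each library left out in turn. They were chosen for the largest changes in the same libraries, so these refits are no independent support.

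**Figure D5:**
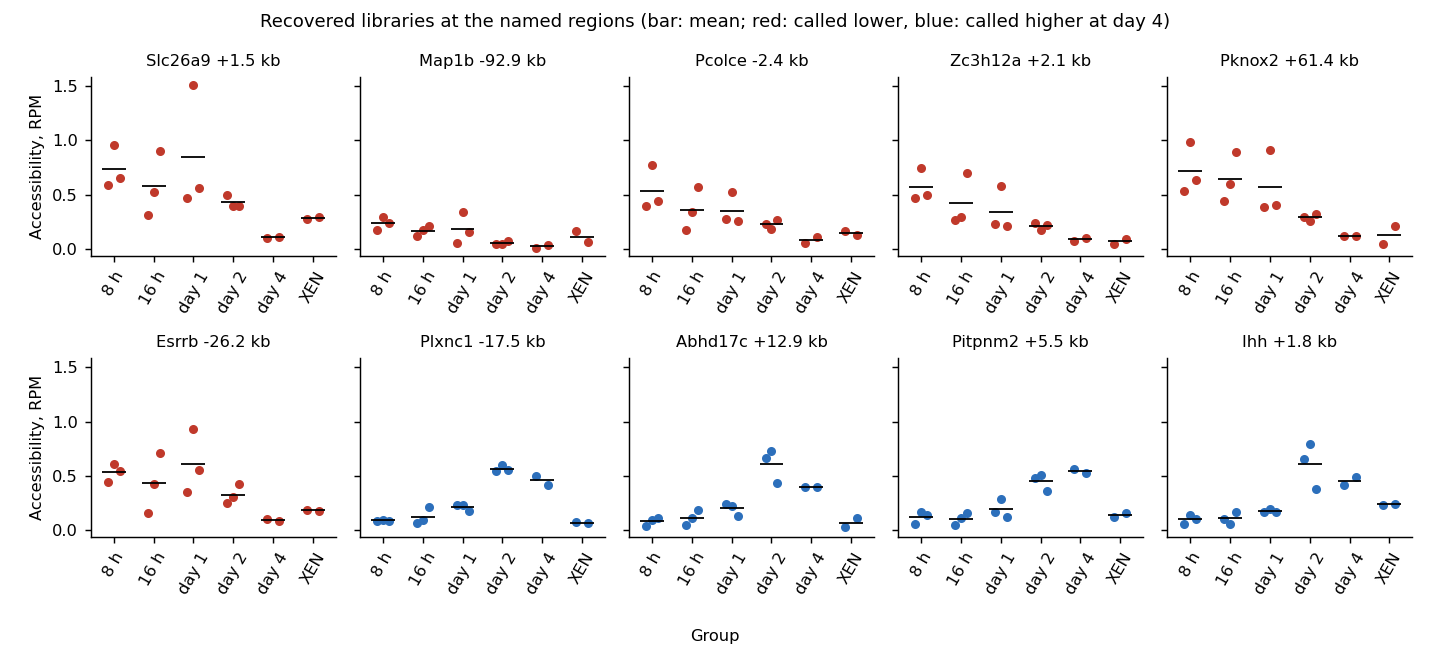
Accessibility in RPM in each recovered library at the 6 regions with the largest loss (red) and the 4 with the largest gain (blue) at day 4 against 8 h, by group. Points are libraries and bars the group mean, and at all 10 regions the day 4 libraries do not overlap the 8 h libraries. The regions were chosen by the size of this change in the same libraries, so the lack of overlap is no separate support.

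Among the members with the most reads per kb at d0 were 3 active, accessible regions. In the averages, the region in an intron of Dgka, a diacylglycerol kinase (chr10:128737336-128737692), had 1.74 RPM per kb at d0, 1.43 at day 2 and 0.423 at day 4. It was the only one of the 3 with recovered libraries, with 0.432, 0.874 and 0.553 RPM at 8 h and 0.155 and 0.136 at day 4, and fell by 1.84 ± 0.40 (adjusted p = 3.72e-05 by limma). The regions in an intron of Taf8, a TFIID subunit (chr17:47484450-47484900), and inside Epb41l1, a cytoskeletal protein gene, near the start of a non-coding transcript (chr2:156447367-156447830), had 1.42 and 1.38 RPM per kb at d0 and 0.521 and 0.338 at day 4. In XEN cells the 3 had between 0.321 and 0.471 RPM per kb.

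The pluripotency genes were taken from a list of 46 genes of the ES cell network and its signalling. Of these, 24 had a member as an annotated or nearest region, with 47 members among 438 GATA6 regions, and 30 of the members had recovered libraries. At day 4 against 8 h, 6 of the 30 fell and 0 rose, where 13.2% of the members and 7.09% of all regions fell and 3.21% and 31.7% rose. At day 2, 3 of the 30 rose and 0 fell, which is below the 13.2% of members and the 38.0% of all regions that rose, and between day 2 and day 4 4 fell. In the averages, the 47 members had a median change of -0.50 at day 4 against d0, 7 of them past 2-fold lower and 0 higher. The list's median at day 4 against 8 h, -0.46, was below that of all members. It rests on 30 regions only, and some of the calls were lost with single libraries left out. Whether the list differs from the other members was not tested.

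Besides the Esrrb region, those that fell at day 4 lay at Fgf5, a ligand of the formative epiblast, Nr5a2, a nuclear receptor of the ES cell and PrE programmes, Tfcp2l1, a naive pluripotency factor, and Socs3, the feedback inhibitor of LIF signalling. The Fgf5 region, an accessible intronic site 1.48 kb from the start, had 0.233, 0.498 and 0.328 RPM at 8 h and 0.0962 and 0.0955 at day 4 and fell by 1.55 (adjusted p = 0.000499 by limma). Of 2 regions downstream of Socs3, that at 32.6 kb had 0.299, 0.508 and 0.408 RPM at 8 h and 0.139 and 0.136 at day 4 (-1.35, adjusted p = 0.0028 by limma), and that at 39.6 kb had 0.0807, 0.174 and 0.103 and then 0.0267 and 0.0452 (-1.14, adjusted p = 0.0098 by limma). The Nr5a2 region, 2.67 kb into the gene, had 0.0665, 0.122 and 0.117 RPM at 8 h and 0.0321 and 0.0251 at day 4 (-1.14, adjusted p = 0.00836 by limma). The Tfcp2l1 region, 27.5 kb into the gene, had 0.0949, 0.165 and 0.127 and then 0.0428 and 0.0502 (-1.03, adjusted p = 0.0218 by limma). The day 4 libraries lay below all 8 h libraries at each of these sites, which were picked by this call, so the order is no separate support. The calls at Tfcp2l1 were lost without 8 h library B or either day 4 library, at Socs3 39.6 kb without 8 h library B or day 4 library A, and at Nr5a2 without day 4 library B.

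The 3 sites of the same list that rose at day 2 lay at Esrrb, Nanog and Dppa3. A second poised Esrrb region, 18.4 kb upstream of the same start, had 0.076, 0.183 and 0.122 RPM at 8 h, 0.61, 0.548 and 0.245 at day 2, 0.192 and 0.296 at day 4 and 0.0231 and 0.139 in XEN cells. It rose by 1.63 by day 2 (adjusted p = 2.32e-05 by limma), while the day 2 libraries of the other Esrrb region lay below its 8 h libraries. A region 34.5 kb upstream of Nanog, the homeobox factor of naive pluripotency, had 0.123, 0.155 and 0.0984 RPM at 8 h, 0.378, 0.381 and 0.28 at day 2 and 0.134 and 0.226 at day 4, and rose by 1.28 by day 2 (adjusted p = 0.00109 by limma). The third, upstream of Dppa3, had 3, 7 and 3 reads at 8 h, and its rise of 1.06 (adjusted p = 0.00335 by limma) was lost without 8 h library A or C or day 2 library C. All 3 calls were lost after the libraries were centred. Against day 2, the day 4 level was lower at Esrrb 26.2 kb upstream, Fgf5 (-1.20, adjusted p = 0.0324 by limma) and Nr5a2 (-1.20, adjusted p = 0.0238), of which the calls at Fgf5 and Nr5a2 were lost without any 1 of the libraries compared. XEN cells were lower than day 4 at Esrrb 18.4 kb upstream (-1.51, adjusted p = 0.00573 by limma) and at a primed region 313 kb upstream of Jarid2, a Polycomb subunit (-1.33, adjusted p = 0.0157), and neither call held without XEN library A. A region in an exon of Tbx3os1, 95.5 kb upstream of Tbx3, was lower at day 4 than at day 2 by a log2 change of -1.10 (adjusted p = 0.048 by limma), a call that did not hold without any 1 of the libraries compared.

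The PrE list, 40 genes of the primitive endoderm and its basement membrane, had 14 genes with a member, 24 members among 448 GATA6 regions and 16 with recovered libraries. At day 4 against 8 h, 1 of the 16 rose and 1 fell, and at day 2 1 rose and 0 fell. Over all regions 31.7% rose and 7.09% fell at day 4 and 38.0% rose at day 2. Of the 2771 recovered members 89 rose and 367 fell at day 4 and 365 rose at day 2. The list's counts, of 16 regions only, do not set it apart from the other members. In the averages the 24 had a median change of -0.06 at day 4 against d0, with 2 past 2-fold higher and 3 lower. The called regions lay at Fgfr2 and Fgfr1, which code for receptors of the FGF signal that drives PrE. The primed intronic region 70.1 kb into Fgfr2 had 0.076, 0.0987 and 0.113 RPM at 8 h, 0.639, 0.476 and 0.441 at day 2, 0.23 and 0.281 at day 4 and 0.115 and 0.101 in XEN cells. It rose by 2.12 by day 2 (adjusted p = 2.5e-08 by limma) and was still higher by 1.19 at day 4 (adjusted p = 0.00864), the latter not without day 4 library B and not after centring. The poised region 88.1 kb upstream of Fgfr1 had 0.427, 0.621 and 0.441 RPM at 8 h, 0.155 and 0.111 at day 4 and 0.277 and 0.236 in XEN cells, and fell by 1.69 (adjusted p = 0.000151 by limma). A poised region 199 kb downstream of the start of Fgfr2 had 0.155, 0.143 and 0.0961 RPM at day 2 and 0.0267 and 0.0352 at day 4 (-1.39, adjusted p = 0.00823 by limma), a call that was lost without day 2 library A or either day 4 library. In XEN cells against day 4, regions in an intron of Fgfr1 (1.59, adjusted p = 0.00174 by limma) and near Apoa1 (1.27, adjusted p = 0.0214) were higher, and neither call held without XEN library A.

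Set beside related transient regions, the members lay between sites that PTFs held at d0 and sites in chromatin without enhancer marks. Of 1741 recovered PTF-bound transient enhancer regions 855 (49.1%) fell at day 4 against 8 h and 2 rose, with a median of -0.99. Of 1070 transient GATA6-only regions in facultative heterochromatin 19 fell and 45 rose, and of 532 in unmarked chromatin 8 fell and 8 rose, with medians of -0.01 and -0.09. The 3 sets differ from the members in d0 class as well, with 24.8% accessible in the first and 95.6% and 98.3% closed in the others, against 3.74% accessible and 35% closed members. No test of these differences between sets was made, since regions are not replicates.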

How the data were processed

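ATAC-seq was made in 20 samples. The authors' steps were trimming (cutadapt), alignment to mm10 (bowtie2), removal of duplicates and of reads with MAPQ of 30 or less, and a shift of read ends by 4 and 5 bases for Tn5. They kept fragments under 100 bp and counted reads per GATA6 region with bamsignals (versions not given in the sources used here). The deposited accessibility values are RPM per region, scaled to library size by the authors, with 1 column for each group that holds the mean of its libraries, and 1 read appears to have been added per region and library. The deposited motif score is that of the authors' FIMO scan with JASPAR matrices. Categories were used as deposited: the GATA6 cluster (k-means of input-normalised GATA6 ChIP), SOX17 and PTF classes (MACS2 peaks), ES cell histone marks, accessibility at d0, and GATA6 binding on Oct4 knockdown. Values of other assays in 52 more columns were left aside.

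The averages are sums of whole reads divided by library sizes. Where values had over 12 digits, the single libraries behind an average were solved for (tolerance 1e-08 reads), which gave 16 libraries at 24753 regions without replicate numbers and none at d0. The planned tests were run on these libraries: limma 3.58.1 (R 4.3.3, lmFit and eBayes with intensity trend) on log2(RPM + 0.03), after the added read was removed, with all 6 groups in 1 fit, called at a Benjamini-Hochberg adjusted p under 0.05 and a change above 1. A change on this scale understates that of low regions. Groups came from sample titles. p-values measure the spread between recovered libraries within groups, pooled over all 6 groups. The samples came from separate cultures, but the 2 XEN libraries cannot be matched to the 3 XEN samples. Regions were placed with GENCODE M21 on GRCm38. The 13-letter motif matches fit the genome best without shift (80.56% with GATA in place). The members and gene lists were chosen with earlier results of these data known.

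Named regions were the 6 members with the largest loss and the 4 with the largest gain among those called at day 4 against 8 h, the 4 with the highest RPM per kb at d0 (1 of which is not reported here), and those of the gene lists called in any comparison, none on chromosome 18. The fit was tested on simulated data. Alternatives were other pseudocounts, filters, centring, quantile normalisation, limma voom and libraries left out. Python 3.11.15, numpy 2.4.6 and pandas 2.3.3 were used.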

Additional observations from a re-analysis of the deposited data

How the results depend on the processing

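No paired analysis was possible because libraries recovered from averages carry no replicate number. Depth limits low regions: the members held between 3 and 39 reads at the median of a library. Letters for libraries have no order, and where 1 library of day 4 or XEN cells was left out the remaining library was assumed to vary like the other groups. The cause of the changes below was not tested, except that fewer members were counted where only those with recovered reads were kept. Among 449 refits of 32 calls at named regions, 361 kept their direction and call, 88 kept the direction but lost the call, and 0 reversed.

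With a pseudocount of 0.006 RPM, 162 members were called lower at day 2 and 1 higher at day 4 against day 2. In the averages, 158 were past 2-fold higher and 3 lower at day 1, 205 lower at day 2, 190 higher and 760 lower at day 4, and 188 higher and 643 lower in XEN cells. With 0.15 RPM, calls higher and lower were 1 and 0 at day 1, 117 and 3 at day 2, 18 and 47 at day 4, 0 and 51 at day 4 against day 2, and 1 and 32 in XEN cells. In the averages they were 1 higher at day 1, 173 and 3 at day 2, 21 and 45 at day 4, and 4 and 52 in XEN cells. Libraries centred on their median gave 1 and 10 at 16 h, 6 and 27 at day 1 (all regions 1.56% and 0.509%), 59 and 931 at day 2, 25 and 1078 at day 4, 13 and 163 at day 4 against day 2, and 137 higher in XEN cells. Quantile normalisation gave 3 and 18 at 16 h, 7 and 44 at day 1, 40 and 783 at day 2, 20 and 1103 at day 4, 117 lower at day 4 against day 2, and 191 higher in XEN cells. In centred columns, 1 and 12 members were past 2-fold at day 1 (median -0.14), 68 and 1431 at day 2 (-0.72), 17 and 1645 at day 4 (-0.81), and 6 and 1231 in XEN cells (-0.64). In quantile-normalised columns they were 0 and 10 (-0.14), 51 and 1014 (-0.61), 14 and 1569 (-0.78), and 18 and 1458 (-0.71).

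A minimum mean of 10 reads gave 2 lower at day 1 and 1 higher at day 4 against day 2. Limma voom gave 184 lower at day 2, 139 higher at day 4, and 23 higher and 73 lower in XEN cells. A fit of only the groups compared gave 12 higher and 0 lower at day 1. Without the intensity trend 2 were lower at day 1, and with the added read kept 121 were lower in XEN cells, both chosen after seeing the data, as was leaving out chromosomes 6 and 8, which left 34 higher in XEN cells. With the column minimum subtracted, 1 was lower at day 1 and 614 in XEN cells. Among members with recovered reads only, 334 and 48 were past 2-fold at day 2, 68 and 279 at day 4, and 35 and 262 in XEN cells. With 1 library left out, calls higher and lower ranged over 0 to 106 and 0 to 1 at day 1, 254 to 488 and 34 to 182 at day 2, 49 to 124 and 228 to 603 at day 4, 0 to 1 and 32 to 282 at day 4 against day 2, and 8 to 63 and 32 to 279 in XEN cells. At 16 h both stayed at 0.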
